A study of Mus musculus with 20 samples.

Results

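The hepatocyte bile acid and anion transporters examined here were 10 genes: Slc10a1, Slco1a1, Slco1a4, Slco1b2, Abcb11, Abcb4, Abcc2, Abcc3, Abcc4 and Slc51b. They were the rows of the deposited expression table whose array annotation named one of these symbols, with the brightest row kept for a symbol, and all 10 were found among 19505 named genes. Liver RNA of 20 mice was measured on Clariom S Mouse arrays, with 5 mice in each of 4 groups. The groups were wild type at 4 weeks (labelled OGTL WT, 4w, called 4w-WT), the OGT liver knockout at 4 weeks (OGTL KO, 4w-KO), and the same genotypes at 8 weeks (8w-WT and 8w-KO). OGT is the O-GlcNAc transferase, which attaches a single sugar to many intracellular proteins. The labels gave no sex, strain, promoter or Cre line for the deletion, and no treatment.

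Hepatocytes take up bile acids and other organic anions from portal blood across the basolateral membrane and secrete them across the canalicular membrane into bile. Slc10a1 encodes the sodium-dependent bile acid uptake carrier NTCP, and the Slco1 genes encode sodium-independent organic anion carriers (OATPs). Abcb11 encodes the bile salt export pump, Abcb4 the flippase that supplies phosphatidylcholine to bile, and Abcc2 the canalicular carrier of conjugated organic anions. Abcc3, Abcc4 and the subunit gene Slc51b belong to export back to the blood, a route known for its response to cholestasis. In mouse liver, Slco1a1 is known as a male-biased gene and Slco1a4 as a female-biased one.

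The members whose signals moved with age, Slco1a1, Slco1a4 and Slc51b, are shown first by the 250 bases before their RefSeq start sites (GRCm38.p6), together with Slco1b2, the uptake gene of the same cluster that was not called. RefSeq places Slco1b2, Slco1a4 and Slco1a1 on chromosome 6 in this order, with only Gm5724 between the first 2 and no protein-coding gene between the last 2. Windows of this kind were matched for 9 of 10 members. Capitals mark matches, on either strand, to AGGTCA (the nuclear receptor half-site), GTTAAT (an HNF1 half-site), CAAAGTCCA (an HNF4 element), TTCNNNGAA (the STAT element) or TGACNNNGC (the core of the antioxidant response element). The Slco1a1 window was chr6:141946963-141947212 on the minus strand, and the Slco1a4 window was chr6:141856221-141856470 on the minus strand. The Slco1b2 window was chr6:141629268-141629517 on the plus strand, and the Slc51b window was chr9:65422774-65423023 on the minus strand.
Slco1a1 promoter: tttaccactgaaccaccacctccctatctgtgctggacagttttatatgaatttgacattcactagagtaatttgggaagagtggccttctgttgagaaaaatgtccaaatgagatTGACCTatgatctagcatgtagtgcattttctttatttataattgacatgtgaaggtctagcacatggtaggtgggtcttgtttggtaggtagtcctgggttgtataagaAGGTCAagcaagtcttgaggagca
Slco1a4 promoter: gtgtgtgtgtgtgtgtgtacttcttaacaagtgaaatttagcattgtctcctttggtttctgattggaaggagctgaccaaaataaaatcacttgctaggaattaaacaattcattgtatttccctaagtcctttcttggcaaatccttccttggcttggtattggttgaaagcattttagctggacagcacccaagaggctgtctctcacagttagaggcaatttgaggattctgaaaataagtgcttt
Slco1b2 promoter: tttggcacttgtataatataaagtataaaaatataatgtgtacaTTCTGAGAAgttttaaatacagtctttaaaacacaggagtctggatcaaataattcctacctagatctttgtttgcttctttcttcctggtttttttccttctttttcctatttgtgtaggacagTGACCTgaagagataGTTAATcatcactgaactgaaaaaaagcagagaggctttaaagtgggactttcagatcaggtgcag
Slc51b promoter: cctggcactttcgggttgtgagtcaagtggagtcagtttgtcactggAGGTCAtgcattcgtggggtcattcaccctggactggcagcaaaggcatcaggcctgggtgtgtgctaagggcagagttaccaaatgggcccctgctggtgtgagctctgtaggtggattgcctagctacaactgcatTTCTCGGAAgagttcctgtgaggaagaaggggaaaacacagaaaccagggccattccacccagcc

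The Slco1a1 window held AGGTCA at 2 places, starting 134 bases before the start site on the reverse strand and 24 bases before it on the forward strand. The Slco1a4 window held none of the 5 motifs. Slco1b2 held 3 matches, the nuclear receptor half-site, the HNF1 half-site and the STAT element, and Slc51b held 2, the nuclear receptor half-site and the STAT element. Among 32851 windows of the same length, 14% held AGGTCA, 7.02% TTCNNNGAA, 10.2% TGACNNNGC, 6.43% GTTAAT and 0.384% CAAAGTCCA. The antioxidant response core was found in the windows of Abcc2 and Abcc4. No overlap between motifs occurred in the printed windows, and a match describes only letters.

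Ogt itself was the check on the labels. The log2 signal of Ogt at 4 weeks was 9.37, 9.87, 9.83, 9.65 and 9.14 in WT and 7.37, 8.30, 8.13, 8.84 and 8.07 in KO, without overlap, and it was lower in KO by 1.43 (limma adjusted p = 8.82e-05). At 8 weeks its arrays ran from 9.84 to 10.33 in WT and from 9.55 to 10.01 in KO, overlapping, with a difference of -0.27 that was not called (limma adjusted p = 0.529). In the 8-week arrays the KO label thus came without a called difference in Ogt, and every direction given for KO at 8 weeks rests on that label. The interaction, in which the 4-week KO difference is subtracted from the 8-week one, was called for Ogt (1.16, limma adjusted p = 0.0307). The sources did not say which exons the Ogt feature covers, and the feature read at 8 weeks is the one that was lower at 4 weeks. All 26 measured hepatocyte markers were above background in every group. Their mean log2 signal ran from 17.67 to 17.78 in 4w-WT and from 17.41 to 17.58 in 4w-KO, without overlap. At 8 weeks it ran from 17.72 to 17.84 in WT and from 17.65 to 17.79 in KO. All these means lay above 16, the log2 limit of a 16-bit scanner, so the shift at 4 weeks holds on the deposited scale. The part of this shift in the 4-week KO differences of the transporters and the other lists was not tested. The 4-week arrays WT 4, KO 4 and KO 5 held skeletal muscle transcripts, with Acta1 at 15.89, 15.04 and 15.43 against at most 6.11 in the other 17. Array medians ran from 5.42 to 5.58.

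**Figure D1:**
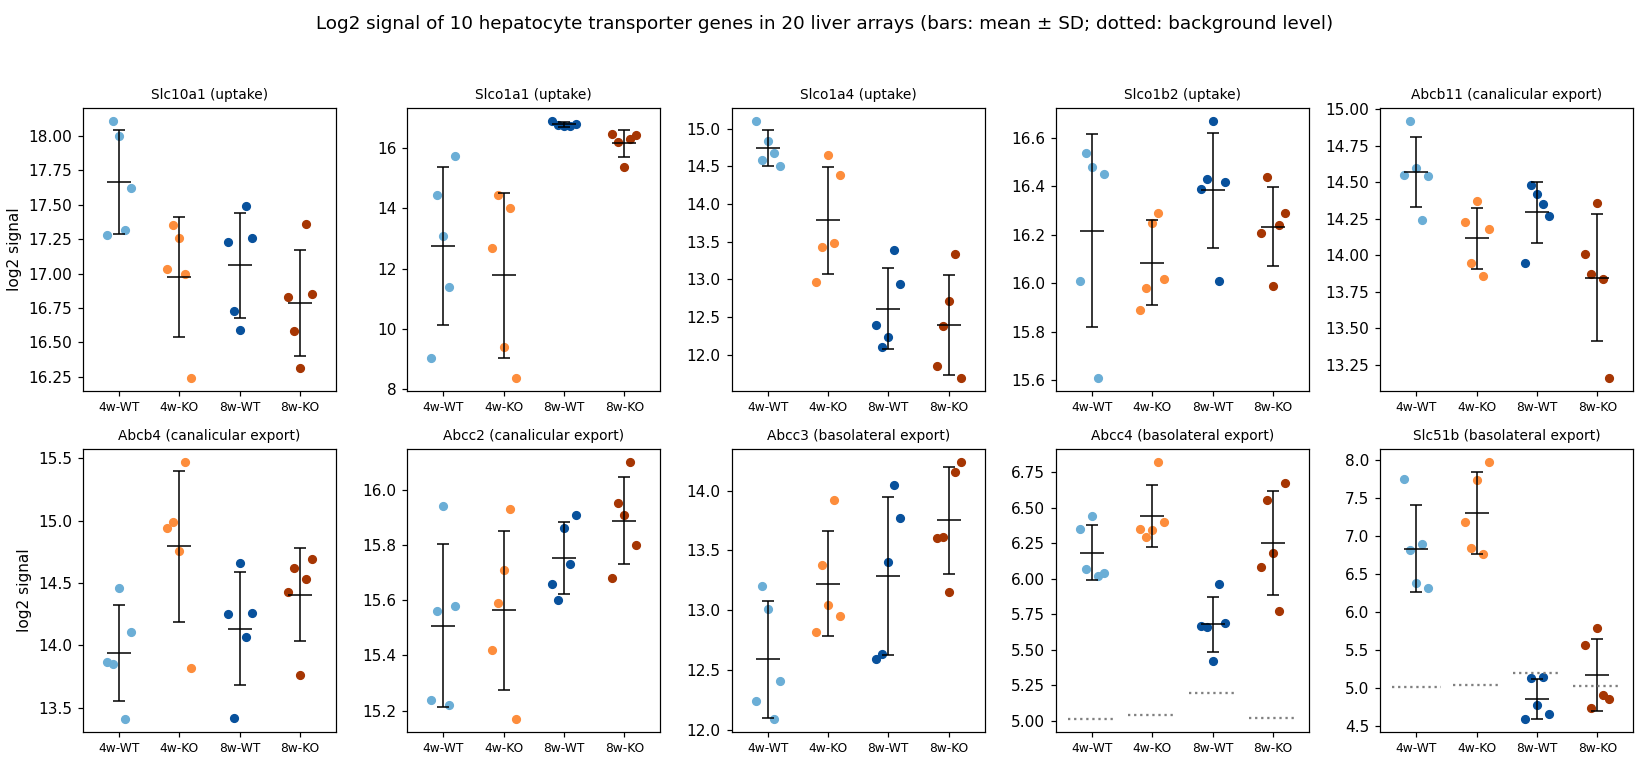
Log2 signal (vertical axes, scaled separately for each gene) of the 10 transporter genes in 5 arrays of each group, with the mean and SD; dotted lines mark the background level for the dim genes Abcc4 and Slc51b. Slco1a1 spread from 8.36 to 15.74 at 4 weeks and lay between 15.39 and 16.91 at 8 weeks, and Slc51b lay at 6.32 or above at 4 weeks and at 5.79 or below at 8 weeks.

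The called differences of the transporters were 1.39 to 4.39 in size between ages and 0.57 and 0.86 between genotypes. From 4 to 8 weeks Slco1a1 rose and Slco1a4 and Slc51b fell, in WT and in KO alike. A gene is called higher or lower at a limma adjusted p below 0.05 over all 19505 genes. In WT 1 member was higher and 2 were lower, where 8.94% of all genes were called, and in KO 1 was higher and 2 lower, where 14.6% were called. For KO against WT, 1 of 10 members was called at 4 weeks, Abcb4, where 10.2% of all genes were called. At 8 weeks 1 of 10 was called, Abcc4, where 6.58% were called. For the interaction limma called 0 of the 10, where 3.05% of all genes were called, and none of their unadjusted p-values was below 0.05. The median difference of the 10 was -0.04 at 4 weeks and -0.01 at 8 weeks for KO against WT, beside 0.00 and -0.04 over all genes. For age it was -0.06 in WT and -0.19 in KO, beside 0.04 and 0.02. Without the 3 arrays with muscle transcripts the members called numbered 1, 1, 3 and 3 in these 4 comparisons, the same counts. Other liver cells also moved with age. In WT the log2 summed signal of stellate and fibroblast markers ran from 16.29 to 16.77 at 4 weeks and from 15.11 to 15.86 at 8 weeks. That of macrophage markers ran from 13.07 to 13.71 and from 12.57 to 12.87. In KO the macrophage list ran from 14.32 to 14.72 and from 13.27 to 14.23, and the stellate list overlapped. The cholangiocyte and ductular list ran from 11.71 to 12.66 in 4w-KO and from 12.97 to 15.26 in 8w-KO. It overlapped between ages in WT. In KO 14 of its 22 genes were higher with age and 1 was lower. The part of these cells in the age differences was not tested.

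**Figure D2:**
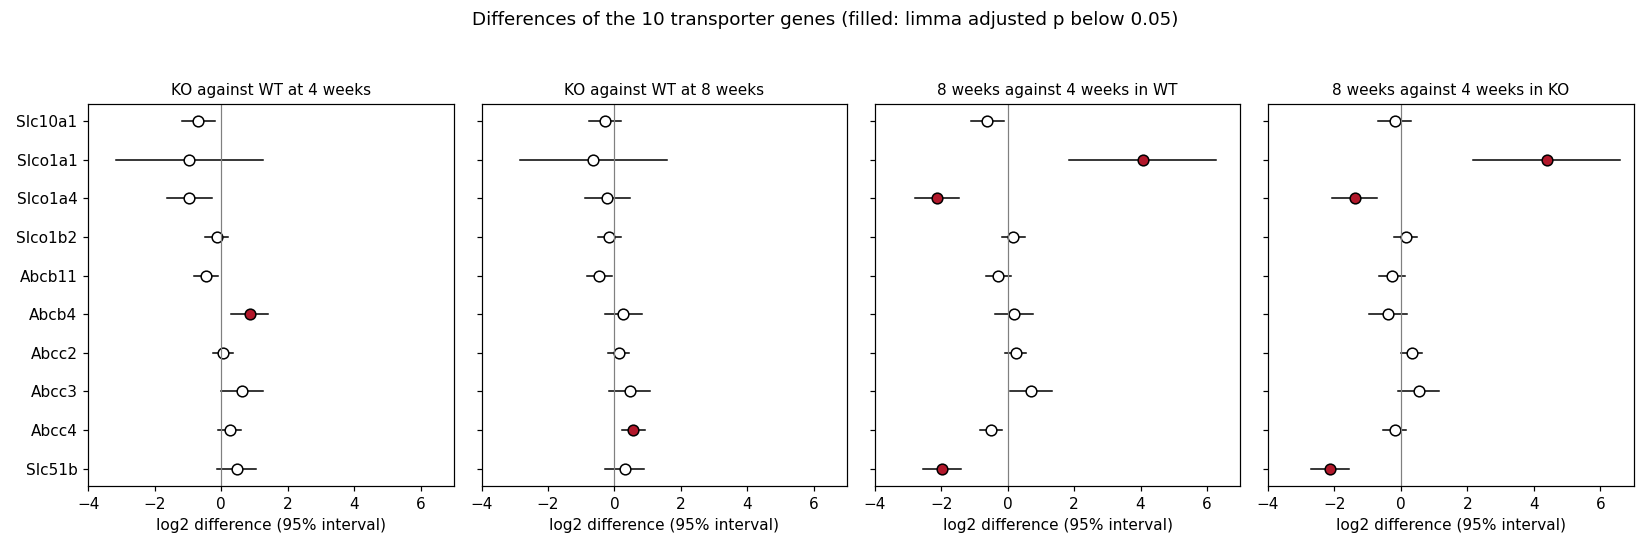
Log2 differences (horizontal axes) with 95% intervals for the 10 transporter genes in 4 comparisons; filled points were called. The called points are Abcb4 and Abcc4, 1 in each genotype comparison, and Slco1a1, Slco1a4 and Slc51b in both age comparisons.

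Among the uptake carriers, Slco1a1 had the largest difference with age. At 4 weeks its log2 signal was 9.02, 14.44, 13.08, 11.40 and 15.74 in WT and 12.70, 14.44, 9.39, 14.00 and 8.36 in KO. The 8-week arrays read 16.91, 16.79, 16.73, 16.73 and 16.82 in WT and 16.47, 16.20, 15.39, 16.31 and 16.46 in KO. The 4-week mice differed widely from each other in both genotypes, whereas every 8-week array except KO 3 was above every 4-week array. The SD of the 4-week arrays was 2.63 (WT) and 2.75 (KO), and that of the 8-week arrays was 0.07 (WT) and 0.45 (KO).

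Slco1a1 was 4.06 higher (SE 1.06, 16.7-fold) at 8 weeks than at 4 weeks in WT (limma adjusted p = 0.0169) and 4.39 higher (SE 1.06, 20.9-fold) in KO (limma adjusted p = 0.00675). Within each genotype the ages did not overlap. The call in WT was lost without 4w-WT replicate 1 (3.13, limma adjusted p = 0.0544) or replicate 4 (3.73, limma adjusted p = 0.0509), and replicate 4 is one of the arrays with muscle transcripts. In 9 arrays its signal lay above 16, the log2 limit of a 16-bit scanner, so the fold holds on the deposited scale.

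Between genotypes, Slco1a1 was 0.96 lower in KO at 4 weeks (SE 1.06, limma adjusted p = 0.682) with overlapping groups, and this was not called. At 8 weeks all 5 KO arrays lay below all 5 WT arrays. The difference there was -0.63 (exact permutation p = 0.00794, two-sided, the smallest that 5 against 5 arrays allow). It was not called in the fit over all groups (limma adjusted p = 0.813), whose common spread includes the 4-week arrays, nor with the 10 arrays of 8 weeks alone (limma adjusted p = 0.0755). Slco1a1 was the 1 member without overlap at 8 weeks, where 6.1% of all genes had none, and at 4 weeks 0 members had none, where 8.55% of genes had none.

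Slco1a4 ran the other way. Its log2 signal at 4 weeks was 15.10, 14.58, 14.84, 14.67 and 14.50 in WT and 12.96, 13.43, 14.65, 13.48 and 14.39 in KO. By 8 weeks it was 12.39, 12.10, 12.23, 13.39 and 12.94 in WT and 11.85, 12.38, 12.71, 13.33 and 11.69 in KO. The WT ages did not overlap, while the KO ages overlapped because KO 1 at 4 weeks lay below KO 4 at 8 weeks.

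With age Slco1a4 fell by 2.13 in WT (SE 0.33, 4.37-fold, limma adjusted p = 0.000135) and by 1.39 in KO (SE 0.33, 2.62-fold, limma adjusted p = 0.00524). At 4 weeks it was at 51.5% of WT in KO, a difference of -0.96 (SE 0.33) that narrowly missed the threshold (limma adjusted p = 0.0663). That difference was called without 4w-KO replicate 3 (-1.17, limma adjusted p = 0.0259) or 4w-KO replicate 5 (-1.11, limma adjusted p = 0.041), and with array medians set equal (-1.03, limma adjusted p = 0.0457). With 1 array left out it ran from -1.17 to -0.75, with limma adjusted p from 0.0259 to 0.187. With the 10 arrays of 4 weeks alone it was not called (limma adjusted p = 0.0551). At 8 weeks it was -0.22 (limma adjusted p = 0.784).

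Slc10a1, the main sodium-dependent bile acid carrier, was bright in all 20 arrays. Each lay above 16, the log2 limit of a 16-bit scanner, so the differences of Slc10a1 hold on the deposited scale. Its log2 signal at 4 weeks was 17.28, 18.11, 18.00, 17.32 and 17.62 in WT and 17.03, 17.35, 17.26, 17.00 and 16.24 in KO. The 8-week values were 17.23, 16.73, 16.59, 17.49 and 17.26 in WT and 16.83, 16.58, 16.31, 17.36 and 16.85 in KO. The order of the means ran from 4w-WT (17.67 ± 0.38, SD, n = 5) over 8w-WT and 4w-KO to 8w-KO (16.79 ± 0.39), and each neighbouring pair overlapped.

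The 4-week difference of Slc10a1 between KO and WT was -0.69 (SE 0.24, limma adjusted p = 0.067), and the age difference in WT was -0.61 (SE 0.24, limma adjusted p = 0.119). Neither was called. The 4-week difference was called with array medians set equal (-0.76, limma adjusted p = 0.0409) and without 4w-WT replicate 1 (-0.79, limma adjusted p = 0.0494), and the age difference in WT was called after repeated quantile normalization (-0.80, limma adjusted p = 0.0245). With 1 array left out the 4-week difference ran from -0.79 to -0.51 (limma adjusted p from 0.0494 to 0.176). The age difference in WT then ran from -0.71 to -0.49 (limma adjusted p from 0.0848 to 0.27).

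Slco1b2, which encodes the liver carrier OATP1B2, had the smallest differences with age among the uptake genes. The arrays read 16.01, 16.54, 16.48, 15.61 and 16.45 in 4w-WT, 15.89, 15.98, 16.25, 16.29 and 16.02 in 4w-KO, 16.39, 16.43, 16.67, 16.01 and 16.42 in 8w-WT and 16.21, 16.44, 15.99, 16.24 and 16.29 in 8w-KO. All 4 groups overlapped. The largest of its differences was 0.17 with age in WT (95% interval -0.18 to 0.51). Its signal lay above 16, the log2 limit of a 16-bit scanner, in 16 of 20 arrays, so this interval holds on the deposited scale. Of the remaining Slco1 genes, Slco1a5 was dim and was lower in KO at 4 weeks by 0.78 (limma adjusted p = 0.0363), from 6.69 in WT to 5.90 in KO, a call that was lost in 8 of 19 alternatives, among them the fits without 4w-WT replicate 1 or 3 or without 4w-KO replicate 1, 2, 4 or 5.

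Slco1a1 and Slco1a4 were set beside lists of 23 male-biased and 25 female-biased liver genes that held neither of them. From 4 to 8 weeks in WT, 21 male-biased genes rose and none fell (median 3.15), and 22 female-biased genes fell and none rose (median -3.41). In KO 15 of 23 rose (median 1.42) and 12 of 25 fell (median -1.33), and none was called the other way in the fit on all arrays. Over all genes the medians were 0.04 in WT and 0.02 in KO. In WT 1 female-biased gene was higher with age when array medians were set equal, without the muscle arrays, with array weights and with only the WT arrays, and in KO 1 was higher without the muscle arrays. The opposite age changes of the 2 Slco1 neighbours ran the way the 2 lists did. The lists were chosen with earlier results of these data known, so this likeness is a description and not a test.

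The spread of Slco1a1 between 4-week mice also followed the male-biased list by array. In 4w-WT the mean log2 signal of the male-biased list was 10.21, 11.55, 10.94, 10.55 and 12.20 in replicates 1 to 5, the same order of mice as for Slco1a1. In 4w-KO it was 11.84, 12.43, 11.16, 12.54 and 10.83, the same order except for the top pair, KO 2 and KO 4. These arrays share the normalization, and the part of sex-biased expression in the spread was not tested. For Slco1a4 and the female-biased list the 4-week KO arrays kept the order only in part. KO 1 had the highest list mean (11.18) and the lowest Slco1a4 signal (12.96). KO 3 and KO 5, both with a list mean of 11.16, read 14.65 and 14.39. KO 2 (10.48) and KO 4 (10.44) read 13.43 and 13.48, below KO 3 and KO 5. In 4w-WT the array with the highest list mean, WT 4 (12.48), read 14.67 in Slco1a4, below WT 1 and WT 3. WT 5 was lowest in both measures, followed by WT 2. For Slco1a1 the genotypes did not lie on one line: KO 3 with a list mean of 11.16 read 9.39 in Slco1a1, and WT 3 with a list mean of 10.94 read 13.08.

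**Figure D3:**
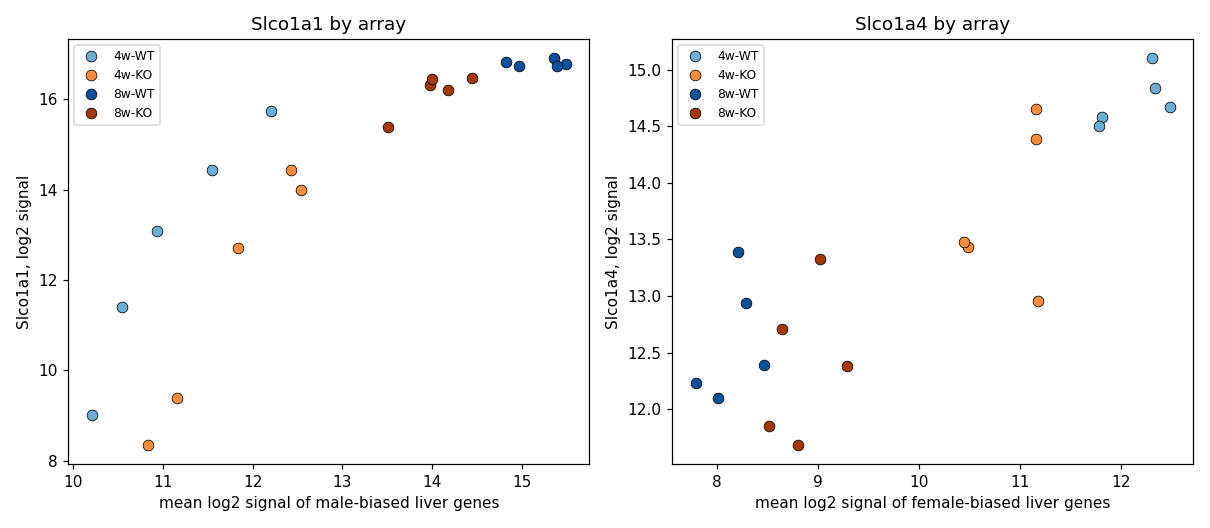
Log2 signal of Slco1a1 against the mean log2 signal of 23 male-biased genes (left) and of Slco1a4 against that of 25 female-biased genes (right), 1 point per array, coloured by group. At 4 weeks Slco1a1 climbs with the male-biased mean in both genotypes, and the 8-week arrays lie together at the top, with KO 3 the lowest at 15.39. Among the 4-week KO arrays KO 1 has the highest female-biased mean and the lowest Slco1a4 signal. KO 3 and KO 5 lie above KO 2 and KO 4 in both.

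At 8 weeks the male-biased list was lower in KO for 7 genes and higher for none, and the female-biased list was higher for 4 and lower for none. The male-biased count at 8 weeks was 4 without 8w-WT replicate 3, the lowest with 1 array left out, and 11 with only the 8-week arrays. In the 4-week KO arrays 6 male-biased genes rose and 3 fell, and 9 female-biased genes fell, with 7 lower and 1 higher without the muscle arrays and 9 lower and 1 higher without 4w-KO replicate 5. Slco1a4, a female-biased gene outside the list, was itself lower at 4 weeks in KO by 0.96 without being called. At 8 weeks Slco1a4 was lower in KO by 0.22, against the direction of the female-biased list. Slco1a1 was lower in KO by 0.96 at 4 weeks, where more male-biased genes rose than fell. It was lower by 0.63 at 8 weeks, the direction of the male-biased list there. None of these differences was called.

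At the canalicular membrane, Abcb4 was the member called at 4 weeks. Its log2 signal was 13.87, 13.85, 14.46, 13.41 and 14.11 in 4w-WT and 14.94, 14.99, 14.76, 15.47 and 13.82 in 4w-KO. All KO arrays but KO 5 lay above every WT array. Abcb4 was 0.86 higher in KO (SE 0.27, 1.81-fold, limma adjusted p = 0.0463). Beside it, 8 of 23 macrophage and monocyte markers were higher in KO at 4 weeks, the log2 of their summed signal running from 13.07 to 13.71 in WT and from 14.32 to 14.72 in KO. The part of these cells in the difference of Abcb4 was not tested.

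The call of Abcb4 was close to the threshold. It was lost with array medians set equal (0.78, limma adjusted p = 0.0669) and with the 10 arrays of 4 weeks alone (0.86, limma adjusted p = 0.0741). It was lost in 8 of 10 fits that each left out 1 array, all but those without 4w-WT replicate 3 or 4w-KO replicate 5, with differences from 0.69 to 1.10 and limma adjusted p from 0.00526 to 0.126. At 8 weeks the arrays read 14.25, 13.42, 14.66, 14.07 and 14.26 in WT and 14.43, 14.62, 13.76, 14.53 and 14.69 in KO, and the difference of 0.27 was not called (limma adjusted p = 0.643).

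Abcb11, the bile salt export pump, was lower in the KO means at both ages by a similar amount without being called. Its log2 signal was 14.55, 14.92, 14.60, 14.24 and 14.54 in 4w-WT and 14.23, 13.95, 14.37, 13.86 and 14.18 in 4w-KO. The 8-week signals were 13.95, 14.48, 14.42, 14.35 and 14.27 in WT and 14.01, 13.87, 14.36, 13.84 and 13.16 in KO. The groups overlapped at both ages, with KO 3 at 4 weeks and KO 1 and 3 at 8 weeks inside the WT range. The difference was -0.45 at 4 weeks (SE 0.18, limma adjusted p = 0.126) and -0.45 at 8 weeks (SE 0.18, limma adjusted p = 0.167). These 2 comparisons use different mice.

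Abcc2, the canalicular carrier of glutathione and glucuronide conjugates, differed least between genotypes in this group. Its signal was 15.24, 15.56, 15.94, 15.22 and 15.58 in 4w-WT, 15.42, 15.59, 15.71, 15.93 and 15.17 in 4w-KO, 15.66, 15.60, 15.86, 15.73 and 15.91 in 8w-WT, and 15.68, 15.95, 15.91, 16.10 and 15.80 in 8w-KO. The groups overlapped throughout. The KO difference was 0.06 at 4 weeks (95% interval -0.26 to 0.37) and 0.14 at 8 weeks (-0.18 to 0.45), and the sign at 4 weeks turned under other settings.

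Of the basolateral export genes, Slc51b, which encodes the beta subunit of the organic solute transporter, fell with age in both genotypes. Its log2 signal at 4 weeks was 7.76, 6.82, 6.38, 6.90 and 6.32 in WT and 7.19, 6.85, 7.74, 6.77 and 7.98 in KO. At 8 weeks it was 4.59, 5.13, 4.78, 5.14 and 4.65 in WT and 5.56, 4.74, 5.79, 4.90 and 4.85 in KO. Every 8-week array lay below every 4-week array. The 8w-WT mean of 4.86 was not above the background level of 5.20, which was taken from the 95th percentile of olfactory and vomeronasal receptor genes.

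Slc51b was lower at 8 weeks by 1.98 as measured in WT (SE 0.28, limma adjusted p = 4.83e-05). Set against the background level, it was at least 3.12-fold lower in 8w-WT. In KO it fell by 2.14 as measured (SE 0.28, 4.4-fold, limma adjusted p = 1.75e-05), and its 8w-KO mean of 5.17 was just above the level of 5.02. The 8w-KO arrays at 4.74, 4.90 and 4.85 lay below that level, so the KO fold also rests on signals near background. KO and WT were not called different at 4 weeks (0.47, limma adjusted p = 0.346) or 8 weeks (0.31, limma adjusted p = 0.599). Its partner subunit gene Slc51a, looked at after its values were seen, was not above background in any group, with means of 4.51 in 4w-WT, 4.71 in 4w-KO, 4.86 in 8w-WT and 4.51 in 8w-KO.

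Abcc4, which exports bile acids and other anions to the blood, was the member called at 8 weeks. Its log2 signal there was 5.67, 5.66, 5.42, 5.96 and 5.69 in WT and 6.08, 6.55, 6.18, 5.77 and 6.67 in KO. All KO arrays but KO 4 lay above every WT array. Abcc4 was 0.57 higher in KO (SE 0.16, 1.48-fold, limma adjusted p = 0.0361). At 4 weeks it read 6.35, 6.07, 6.44, 6.02 and 6.04 in WT and 6.35, 6.29, 6.34, 6.82 and 6.40 in KO, a difference of 0.26 that was not called (limma adjusted p = 0.391).

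The 8-week call of Abcc4 was lost with array medians set equal (0.46, limma adjusted p = 0.0722), repeated quantile normalization (0.43, limma adjusted p = 0.0866), an intensity trend in the variance (0.57, limma adjusted p = 0.0502) and the 10 arrays of 8 weeks alone (0.57, limma adjusted p = 0.0876). It was also lost in 6 of 10 fits that each left out 1 array, those without 8w-WT replicate 1, 2, 3 or 5 or 8w-KO replicate 2 or 5, with limma adjusted p over all 10 from 0.00835 to 0.116. In WT, Abcc4 was 0.50 lower at 8 weeks with no overlap between ages (exact permutation p = 0.00794) and narrowly missed the threshold (limma adjusted p = 0.0563). It was called with array weights (-0.52, limma adjusted p = 0.0309), with only the WT arrays (-0.50, limma adjusted p = 0.039) and with the dimmest genes left out. With 1 array left out this age difference ran from -0.57 to -0.44 (limma adjusted p from 0.0422 to 0.142), called only without 8w-WT replicate 4. Between ages in WT 4 members, Slco1a1, Slco1a4, Abcc4 and Slc51b, did not overlap, where 9.08% of all genes did not. Slco1a1 and Slc51b did not in KO, where 9.47% did not.

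Abcc4 was dim, and other liver cells also moved at 8 weeks. In KO 16 of 22 cholangiocyte and ductular markers, 14 of 23 macrophage and monocyte markers and 10 of 19 stellate cell and fibroblast markers were higher. Of these, Trem2, Cx3cr1 and Timp1 were not above background in either 8-week group. In the fit on all arrays none of these lists had a lower gene, but in other fits up to 2 macrophage markers were lower: 2 with array medians set equal or without 8w-KO replicate 4, and 1 after repeated quantile normalization or without 8w-WT replicate 5 or 8w-KO replicate 1. The log2 of the summed signal of the cholangiocyte list ran from 11.55 to 13.42 in 8w-WT and from 12.97 to 15.26 in 8w-KO. That of the macrophage list ran from 12.57 to 12.87 in 8w-WT and from 13.27 to 14.23 in 8w-KO, and that of the stellate list from 15.11 to 15.86 and from 16.75 to 17.68. Among defining markers, Krt19 and Epcam were not above background in 8w-WT and were above it in 8w-KO. The part of these cells in the difference of Abcc4 was not tested, and in whole liver a change in cell numbers and a change in RNA per cell cannot be told apart. Of 26 hepatocyte markers 1 was lower in KO at 8 weeks, Cebpa, a hepatocyte transcription factor gene (-0.77, limma adjusted p = 0.0349). That call was lost after repeated quantile normalization and in 8 of 10 fits that each left out 1 array, all but those without replicate 4 of 8w-WT or 8w-KO. At 4 weeks 1 was lower, Cyp2e1 (-0.60, limma adjusted p = 0.012), which kept its call in all 19 alternatives. The number of hepatocyte markers called was then 2 without 4w-WT replicate 1 (1 of them higher), 4w-WT replicate 4 or 4w-KO replicate 1, and with array medians set equal, array weights or an intensity trend, and 3 without 4w-WT replicate 5. At 4 weeks 2 of 22 cholangiocyte markers were higher, with 1 higher without 4w-WT replicate 5 or 4w-KO replicate 4, and 4 higher without 4w-KO replicate 5 or with only the 4-week arrays.

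Abcc3, a basolateral carrier of glucuronides and bile acids, had the highest mean in 8w-KO and the lowest in 4w-WT, and no difference was called. The arrays read 12.24, 13.20, 13.01, 12.09 and 12.41 in 4w-WT, 12.82, 13.38, 13.04, 13.92 and 12.95 in 4w-KO, 12.59, 12.63, 13.40, 14.05 and 13.77 in 8w-WT, and 13.60, 13.61, 13.15, 14.16 and 14.24 in 8w-KO. Neighbours in the order of means overlapped. KO was 0.63 above WT at 4 weeks (SE 0.30, limma adjusted p = 0.212) and 0.46 above it at 8 weeks (SE 0.30, limma adjusted p = 0.427), and 8w-WT was 0.70 above 4w-WT (SE 0.30, limma adjusted p = 0.162).

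The genes that make bile acids and regulate their transport were given as lists. In KO at 4 weeks, 6 of 18 genes of bile acid synthesis and conjugation were lower and 1 was higher (median -0.40). These included Slc27a5, the bile acid CoA ligase gene (-0.85, limma adjusted p = 0.00148), Cyp27a1, the mitochondrial sterol hydroxylase gene (-0.89, limma adjusted p = 0.00247), and Hsd3b7 (-0.94, limma adjusted p = 0.011). These 3 kept their calls in all 19 alternatives. The count of 7 called genes was 4, all lower, without the 3 arrays with muscle transcripts, and 3 lower and 1 higher after repeated quantile normalization. It was 4 without 4w-WT replicate 1, 2 or 5 and 3 without 4w-WT replicate 3, 4w-KO replicate 1 or 4w-KO replicate 4, each time with at least 3 lower. At 8 weeks 3 of 18 were lower and none higher (median -0.23), namely Cyp7b1, the oxysterol hydroxylase gene (-2.75, limma adjusted p = 8.08e-05), Baat, the amidation enzyme gene (-0.83, limma adjusted p = 0.0106), and Cyp8b1, a sterol hydroxylase gene (-1.51, limma adjusted p = 0.0113). With array medians set equal 5 were lower. With age 4 rose and 1 fell in WT, and 5 rose and 1 fell in KO. Cyp7b1 rose by 7.49 in WT (limma adjusted p = 1.68e-11) and by 4.44 in KO (limma adjusted p = 9.19e-08), and Cyp39a1, which also hydroxylates oxysterols, fell by 2.24 and 1.36.

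Of 19 measured receptor and regulator genes, 4 were lower in KO at 4 weeks and none was higher (median -0.36). They were Nr5a2, a nuclear receptor gene of bile acid synthesis (-1.08, limma adjusted p = 2.7e-05), Fgfr4, the receptor gene for intestinal FGF signals (-2.10, limma adjusted p = 2.78e-05), Rxra, the common partner of nuclear receptors (-0.75, limma adjusted p = 0.00484), and Nr1i3, the CAR gene (-1.47, limma adjusted p = 0.00575). All 4 kept their calls in the 19 alternatives, and 1 gene of the list was higher without 4w-KO replicate 5. At 8 weeks limma called 0, with 3 lower when array medians were set equal and 2 lower after repeated quantile normalization or without 8w-WT replicate 1, and 1 lower without 8w-WT replicate 2 or 8w-KO replicate 4 or 5. The 2 with the smallest adjusted p were Foxa1 (-1.05, limma adjusted p = 0.0639) and Foxa2 (-1.28, limma adjusted p = 0.0718). The interaction was itself called for Fgfr4 (2.19, limma adjusted p = 0.003) and Nr5a2 (0.81, limma adjusted p = 0.0261), the latter lost with array medians set equal or without 4w-WT replicate 3.

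Among 24 other bile, sterol and anion transporters, 2 rose and 3 fell in the 4-week KO arrays, and 4 rose and 1 fell in the 8-week ones. Abcb1a, a multidrug efflux pump gene related to Abcb4 and Abcb11, was higher at 4 weeks (1.51, limma adjusted p = 0.00353) and 8 weeks (2.55, limma adjusted p = 3.12e-05). Slc22a7, an organic anion carrier gene, was lower at 8 weeks (-2.67, limma adjusted p = 0.00155). Slc10a5, a relative of Slc10a1, was lower at 4 weeks (-1.01, limma adjusted p = 0.000658). The 5 called at 4 weeks were 3 without the arrays with muscle transcripts, 3 without 4w-WT replicate 1, 3 or 5 or 4w-KO replicate 1, 2 or 5, and 2 without 4w-KO replicate 4. With age in WT 3 were higher and 3 lower, among them Slc10a2, the apical bile acid carrier gene of ileum and bile duct (3.02, limma adjusted p = 5.46e-06), and in KO 6 were higher and 4 lower. The KO count of 10 was 4 without 4w-KO replicate 2, 5 without 4w-KO replicate 1 or 8w-KO replicate 2, and 6 (3 higher and 3 lower) with only the KO arrays.

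Of 16 genes for canalicular flippases, scaffolds and anchoring proteins, 1 was lower in KO at 4 weeks, Slc9a3r1, which anchors membrane proteins (-0.63, limma adjusted p = 0.00913). At 8 weeks Ezr (2.05, limma adjusted p = 7.9e-05) and Msn (0.75, limma adjusted p = 0.0216), linkers of membrane to actin that other liver cells also express, were higher as measured, and Msn was not above background in 8w-WT. Ezr kept its call in all 19 alternatives, while Msn lost it without 8w-WT replicate 1 or 3 or 8w-KO replicate 1 or 2. The list had 4 higher genes at 8 weeks without 8w-WT replicate 2.

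Targets of xenobiotic and oxidant sensors, which are known to include Abcc2, Abcc3 and Abcc4, were counted for comparison. Of 22 NRF2 targets 17 were higher in KO at 4 weeks and 5 at 8 weeks, with none lower in the fit on all arrays. Without the muscle arrays 13 were higher at 4 weeks. At 4 weeks 1 was lower with array medians set equal, with the dimmest genes left out, with array weights and without 4w-KO replicate 2, and at 8 weeks 3 were higher without 8w-WT replicate 1. Gstm3, a glutathione transferase gene, was higher by 3.05 at 4 weeks (limma adjusted p = 3.54e-07). Of 20 CAR and PXR targets, 2 were higher at 4 weeks, and 1 was higher and 1 lower at 8 weeks. The lower gene at 8 weeks was not called after repeated quantile normalization, without the muscle arrays, with only the 8-week arrays, or in 8 of 10 fits that each left out 1 array, all but those without 8w-KO replicate 2 or 4. At 4 weeks 1 was higher without the muscle arrays and 3 after repeated quantile normalization, with array weights or with an intensity trend, and 1 was lower without 4w-WT replicate 2. The KO differences of Abcc2, Abcc3 and Abcc4 at 4 weeks were 0.06, 0.63 and 0.26, and none was called. At 8 weeks they were 0.14, 0.46 and 0.57, and only that of Abcc4 was called, a call lost in other fits as given above.

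**Figure D4:**
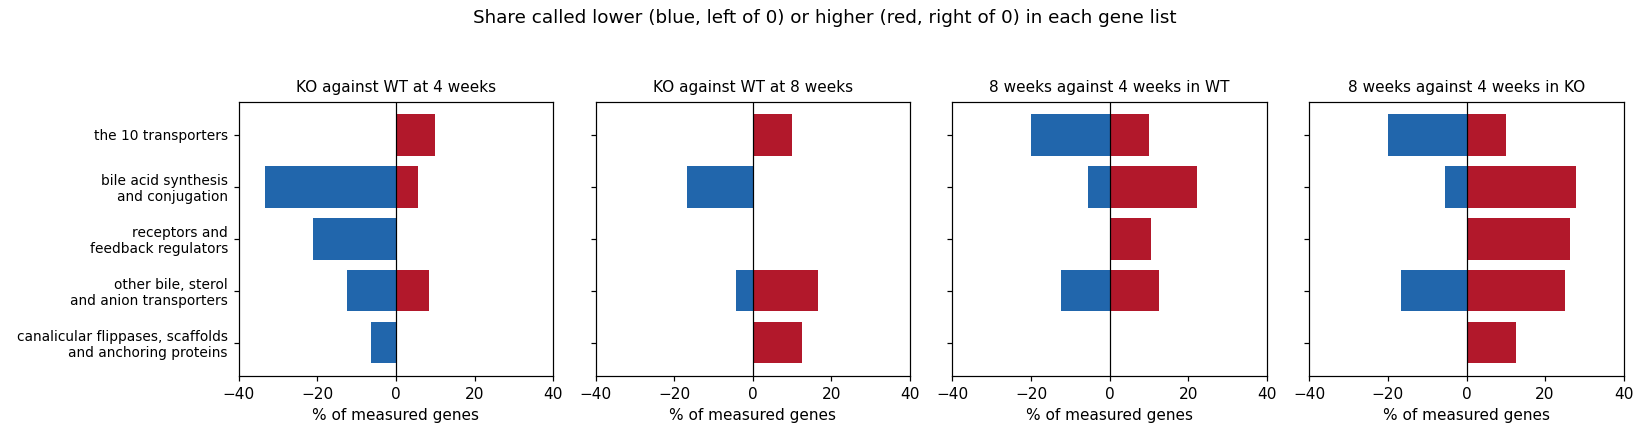
Share of the measured genes of 5 lists (10, 18, 19, 24 and 16 genes) called lower (blue, left of 0) or higher (red, right of 0) in 4 comparisons, in percent. In KO at 4 weeks 6 of 18 synthesis genes and 4 of 19 receptor genes lie to the left, and the transporters have 1 of 10 genes to the right. Over all genes 5.48% were called lower and 4.7% higher there, 10.2% in all. The synthesis count and the 1 transporter call changed in other fits.

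The genes with profiles most like each member were sought over the 20 arrays among 11601 genes above background in at least 1 group, by Pearson's r, which here describes arrays that share groups and normalization. Slco1a1 was most like Ces3a (r = 0.98), Mup21 (0.97) and Mup9 (0.96), and Slco1a4 like Rdh5 (0.93), Sult2a5 (0.90) and Sult2a3 (0.90). Slc51b was most like Apof (0.93), Cyp2c55 (0.93) and Sult1a1 (0.92). Abcc4 was most like Itgb1 (0.93), Ncoa7 (0.92) and H3f3b (0.90), whereas the first gene for Abcb4 was Palmd (0.85) and for Abcb11 Hacl1 (0.84). Mup and Sult2a genes have near-identical copies, so which copy a feature reports is uncertain.

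Slc10a1 was most like Glrx (0.88), Perp (0.86) and Ces2g (0.83), and Slco1b2 like Rcbtb1 (0.87), Rspry1 (0.82) and Pttg1ip (0.81). For Abcc2 these were Atg7 (0.81), Reep3 (0.79) and Hipk2 (0.78), and for Abcc3 Prps2 (0.85), Tsga10 (0.84) and Aak1 (0.84). After Palmd, Abcb4 was like Rab5a (0.82) and Ywhaz (0.79), and after Hacl1, Abcb11 was like Gstt3 (0.82) and Thnsl2 (0.82). No member was among the 3 genes most like another.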

How the data were processed

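Log2 signals of 22206 features on 20 arrays were used as deposited. The authors made these log2 values with RMA in Affymetrix Expression Console, per the submitters' processing notes; their versions are not known from these sources. Of the features, 19572 carried 1 gene symbol and 2634 none. For 55 symbols with several features the brightest was kept, leaving 19505 genes.

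A model of 4 group means on all 20 arrays used limma 3.58.1 under R 4.3.3 (16 residual degrees of freedom), with Benjamini-Hochberg adjustment over 19505 genes and a threshold of 0.05. Groups came from the labels. The members and the 14 gene lists (293 of 318 genes measured) were chosen with earlier results of these data known. The background level, set after results were seen, was the 95th percentile of the group means of 1412 olfactory and vomeronasal receptor genes. The named genes were the 10 members, Ogt, Acta1, up to 4 called genes with the smallest adjusted p per list described (up to 2 where none was called), and 3 genes most like each member. Signals of different genes were not compared. The script was tested on simulated data. The number of arrays limits the precision. Replicate numbers were not taken to pair mice. Alternatives were equal array medians, repeated quantile normalization, a filter on dim genes, only the arrays compared, each array left out, the muscle arrays left out, a replicate block, array weights, an intensity trend and feature means.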

Additional observations from a re-analysis of the deposited data

Results flagged for a closer look

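Of 40 groups of 5 arrays, 3 held an array far from the others of its group. Chance alone marks about 1 in 20 groups. Slco1a1 in 8w-KO replicate 3 read 15.39, with the next array at 16.20. Abcb4 in the same array read 13.76, with the next at 14.43. Abcc4 in 4w-KO replicate 4, one of the arrays with muscle transcripts, read 6.82, with the next at 6.40.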

How the results depend on the processing

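Of 1040 recomputed member differences, 973 kept their direction and side of the threshold, 24 lost a call, 10 gained one and 33, none of them called, changed sign. The age falls of Slco1a4 and Slc51b in both genotypes and the age rise of Slco1a1 in KO kept their calls in all 19 alternatives each. The members called for KO at 4 weeks numbered 2 with array medians set equal (Slc10a1 and Slco1a4 in place of Abcb4), 0 with the replicate block and 0 with the 10 arrays alone. At 8 weeks they numbered 0 with array medians set equal, repeated quantile normalization, the replicate block, the intensity trend and the 10 arrays alone. With 1 array left out, the members called ranged from 0 to 2 at 4 weeks, 0 to 1 at 8 weeks, 2 to 4 for age in WT and 3 to 3 in KO. Genes called for the interaction ranged from 385 (without 8w-KO replicate 1) to 747. Deviations of same-numbered arrays correlated above 0.1 in 5 of 30 pairs (-0.18 to 0.48). Of these, 4 were replicates 1 to 4 of 4w-WT and 4w-KO (0.14, 0.32, 0.16 and 0.48), whose replicate 5 was at -0.15, and both arrays of replicate 4 held muscle transcripts. The labels gave no pairing, so the numbers were not taken to pair mice. These correlations cannot exclude a pairing of WT and KO mice within 4 weeks. With the replicate block the limma adjusted p was 0.0815 for Abcb4 at 4 weeks (0.86) and 0.0749 for Abcc4 at 8 weeks (0.57), and no other call of a member changed. With that block 4 synthesis genes were lower at 4 weeks, and at 8 weeks 1 macrophage marker and 2 receptor genes were lower and the 1 lower CAR and PXR target was not called.

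Sign changes for KO at 4 weeks were Abcc2 (-0.02 with array medians set equal, -0.01 without the muscle arrays, -0.04 to 0.16 with 1 array left out) and Slco1b2 (0.02 after quantile normalization). For the interaction they were Abcb11 (-0.04 with array medians set equal, -0.06 after quantile normalization), Slco1b2 (0.18 without the muscle arrays, 0.07 with array weights) and Abcc3 (0.10 without the muscle arrays). With 1 array left out they were Slco1a1 (-0.53 to 1.26), Slco1b2 (-0.11 to 0.13), Abcb11 (-0.12 to 0.18), Abcc2 (-0.03 to 0.17), Abcc3 (-0.34 to 0.02) and Slc51b (-0.39 to 0.01). Causes were not tested. Equal array medians moved the median difference of all genes at 8 weeks from -0.04 to -0.15 and the share of higher among called genes from 75% to 48.3%. At 4 weeks that share went from 46.2% to 33.2%, and for age in WT from 41.5% to 52%. Signals near background limit Slc51b at 8 weeks.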
